A study of Mus musculus with 12 samples.

Results

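The genes described here are 37 type I interferon-stimulated effector genes, the antiviral effectors, RNA sensors and regulators that cells switch on when interferon reaches them. They were chosen by name from general knowledge of this response, with earlier results of these data known. They are the rows whose Ensembl identifier maps to the listed symbols. Shares of the list that were called are therefore descriptive. All 37 were found among the 54838 genes of the deposited table, and all 37 passed the filter on low counts that left 15938 genes for testing. Their expression was followed in the ileum of 12 C57BL/6J mice, 8 to 14 weeks old. The labels give no genotype beyond the strain. The animals drank normal water or water with 25 mM ZnSO4 for 7 days and then received an intraperitoneal injection of PBS or of 200 µg dexamethasone (Dex), a synthetic glucocorticoid, 2 h before sampling. The 4 groups were water + PBS (the control), water + Dex, ZnSO4 + PBS and ZnSO4 + Dex, with 3 mice each. Whole ileum was taken, so each value mixes epithelial, immune and muscle cells, and a lower count cannot tell fewer cells of a type from less RNA per cell.

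Type I interferons (IFN-α and IFN-β) bind a receptor made of IFNAR1 and IFNAR2, and type III interferons (IFN-λ) bind IFNLR1 with IL10RB, the pair that dominates in gut epithelium. Both receptors use Janus kinases to phosphorylate STAT proteins, which join IRF9 and bind the interferon-stimulated response element (ISRE) in the promoters of target genes. In the healthy intestine these genes are active at a low, constant level without infection. Their products bind foreign RNA (IFIT proteins), make 2-5A to activate RNase L (OAS proteins), sense viral RNA (RIG-I, MDA5, LGP2) or attach the ubiquitin-like protein ISG15 to other proteins.

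The ISRE was looked for as the letters GAAA, any 2 bases and GAAA again, on either strand, in RefSeq promoter windows of GRCm38.p6, from 250 bases before to 50 bases after each start. Windows existed for 30 of the 37 genes, and 16 of these 30 held at least 1 match. There was none for Usp18, Oas2, Dhx58, Mx1, Mx2, Rtp4 and Ifi27. Counted by window, 18 of 34 windows of these genes (52.9%) held the letters, against 1131 of all 32851 windows (3.44%). The stretch before the start of 8 genes is printed here so that the element can be seen beside the counts of the same genes. Capitals mark each ISRE match, and matches that overlap run together as 1 capital stretch. The sequences are on the strand of the gene, from 160 bases before the RefSeq start to the base before it, except that of Ifit1, which stops at position -19, the base before the start of the gene in the GENCODE annotation. They lie at chr19:34601969-34602128 on the minus strand (Ifit1bl1), chr19:34640729-34640870 on the plus strand (Ifit1), chr19:34583369-34583528 on the plus strand (Ifit3) and chr4:156200819-156200978 on the minus strand (Isg15). The others lie at chr5:120907526-120907685 on the minus strand (Oas1a), chr8:61927927-61928086 on the plus strand (Ddx60), chr12:26456453-26456612 on the minus strand (Rsad2) and chr8:71537473-71537632 on the minus strand (Bst2).
Ifit1bl1: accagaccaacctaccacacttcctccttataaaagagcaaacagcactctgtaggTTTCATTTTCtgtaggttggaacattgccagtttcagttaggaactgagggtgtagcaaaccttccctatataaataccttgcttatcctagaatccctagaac
Ifit1: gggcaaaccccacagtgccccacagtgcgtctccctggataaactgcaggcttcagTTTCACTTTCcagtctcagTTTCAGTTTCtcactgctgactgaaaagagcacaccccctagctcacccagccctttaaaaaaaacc
Ifit3: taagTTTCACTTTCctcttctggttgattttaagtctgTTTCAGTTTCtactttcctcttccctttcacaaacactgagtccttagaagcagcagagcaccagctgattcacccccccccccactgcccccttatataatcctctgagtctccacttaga
Isg15: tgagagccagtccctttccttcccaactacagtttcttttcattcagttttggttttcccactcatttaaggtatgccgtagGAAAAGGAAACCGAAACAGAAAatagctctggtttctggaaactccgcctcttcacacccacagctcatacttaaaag
Oas1a: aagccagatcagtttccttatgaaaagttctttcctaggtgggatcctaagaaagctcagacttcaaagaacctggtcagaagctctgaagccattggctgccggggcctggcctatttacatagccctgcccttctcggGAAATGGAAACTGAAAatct
Ddx60: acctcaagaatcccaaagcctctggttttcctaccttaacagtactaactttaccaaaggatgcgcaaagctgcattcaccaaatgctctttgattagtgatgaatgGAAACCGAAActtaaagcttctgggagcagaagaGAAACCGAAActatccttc
Rsad2: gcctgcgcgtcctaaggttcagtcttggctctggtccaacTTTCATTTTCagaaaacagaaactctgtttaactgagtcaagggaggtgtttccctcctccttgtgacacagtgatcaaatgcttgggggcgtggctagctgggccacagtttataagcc
Bst2: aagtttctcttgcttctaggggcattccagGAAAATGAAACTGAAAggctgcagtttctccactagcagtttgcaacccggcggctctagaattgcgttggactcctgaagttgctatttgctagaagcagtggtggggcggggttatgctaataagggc

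The 3 genes of the Ifit cluster that are printed carry the element on the opposite strand, where it reads as TTTC, any 2 bases and TTTC. Isg15 carries 3 overlapping matches between positions -78 and -57, and Oas1a and Bst2 carry 2 overlapping matches each. Ddx60 holds the same 10 letters at positions -53 and -19. No match was found in the windows of Ifit2, Herc6, Trim25, Oasl1, Oasl2, Cmpk2, Ifi44, Xaf1, Lgals3bp, Ifi35, Sp100, Samd9l, Rnf213 and Helz2, which says only that these letters are not in these windows. The longer form, with CT after the second GAAA, was found in 10 of the 30 genes and in 0.271% of all windows.

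**Figure D1:**
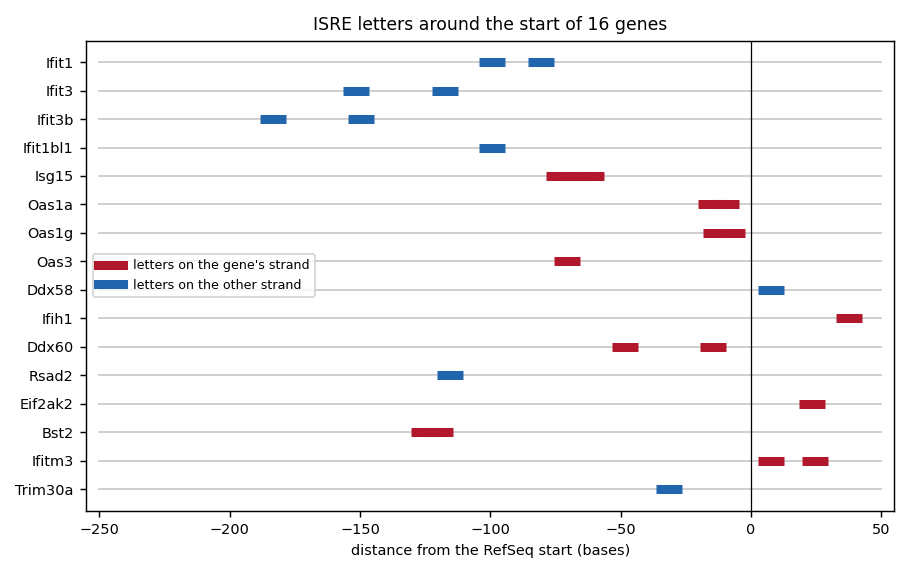
Positions of the ISRE letters in the promoter windows of the 16 genes that held a match, 1 row per gene (the first window of each), with the distance from the RefSeq start in bases on the horizontal axis. Red bars are matches on the strand of the gene and blue bars on the other strand. The matches of Ddx58, Ifih1, Eif2ak2 and Ifitm3 lie after the start and those of the other 12 genes before it.

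The libraries held 10760132 to 11827487 counted reads each. Counts were scaled by TMM (a factor for library size and composition) to a mean effective library of 11377723 reads and are called normalised counts below. Fold changes are LFC (log2 fold change) ± SE from edgeR's quasi-likelihood test, and p-values were corrected over all 15938 genes (Benjamini-Hochberg). Genes were called regulated when the adjusted p was below 0.05 and the LFC exceeded 0.8 in either direction, and n was 3 mice per group throughout. In the label checks, Mt1, the zinc-induced metallothionein, had 490.3 to 850.2 normalised counts in water + PBS and 11971 to 22541 in ZnSO4 + PBS, and Fkbp5, a glucocorticoid target, had 969 to 1222 in water + PBS and 10423 to 12396 in water + Dex. B cell markers differed widely between mice. Their sum of 5 genes ran from 268 to 4879 normalised counts within water + PBS, with the highest values in mouse 2 of water + PBS and mouse 2 of ZnSO4 + PBS. Albumin (Alb), a liver gene, was highest in mouse 3 of water + Dex and mouse 2 of ZnSO4 + Dex. Counts without these libraries are given where they differ. The labels do not tie libraries to litters or cages, so p-values measure the spread between these 12 samples.

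The effector genes lay lower on balance in mice that drank ZnSO4, and lowest where ZnSO4 and Dex were combined. As a summary for each mouse, the median log2 difference of the 37 genes from their mean in water + PBS was 0.00, 0.21 and -0.25 in the 3 control mice. It was -0.07, -0.11 and -0.19 in water + Dex, and -0.49, -0.32 and -0.15 in ZnSO4 + PBS. In ZnSO4 + Dex it was -0.88, -0.87 and -0.84, below each of the other 9 mice. Mouse 3 of water + PBS was the lowest control for 28 of the 37 genes and mouse 2 the highest for 27, and the 3 control medians lay further apart than those of ZnSO4 + Dex.

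**Figure D2:**
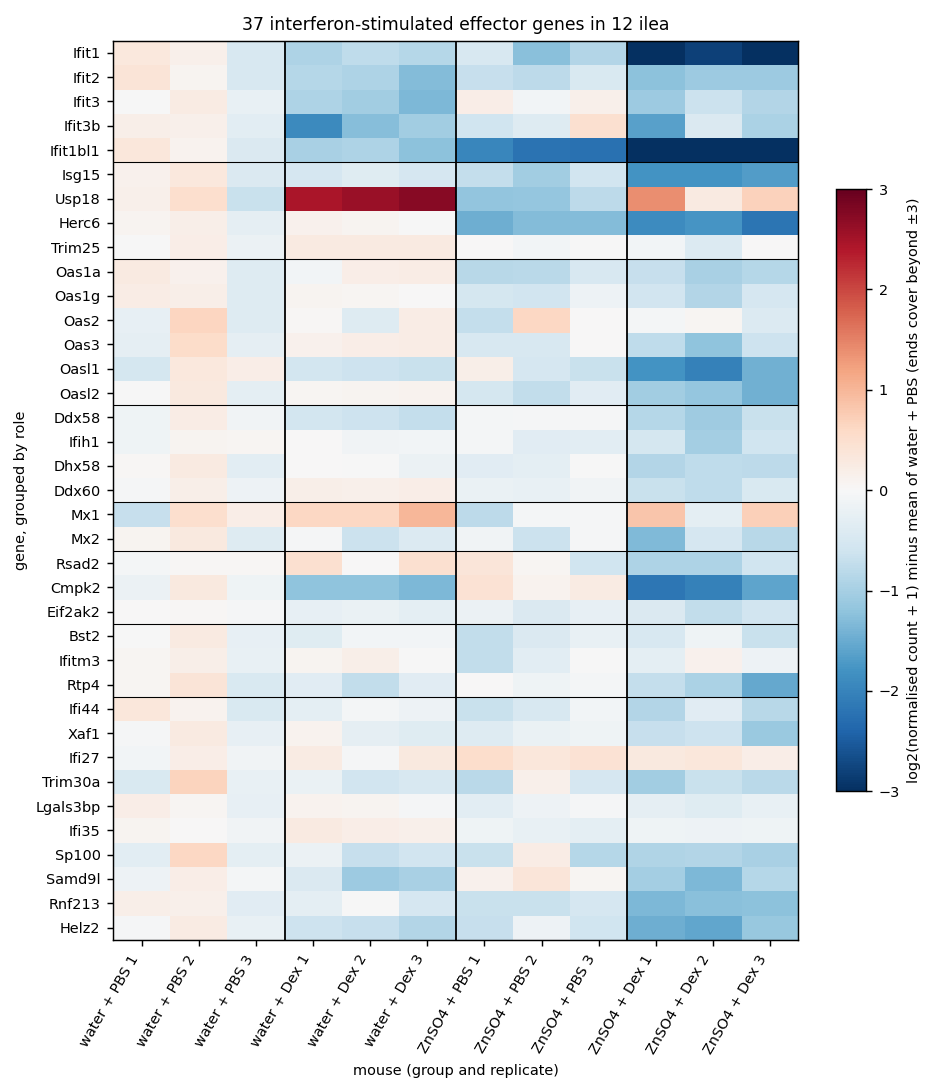
Level of each of the 37 genes (rows, grouped by role) in each of the 12 mice (columns), as log2(normalised count + 1) minus the mean of water + PBS, with blue lower and red higher. The columns of ZnSO4 + Dex hold the deepest blue, at Ifit1bl1 and Ifit1, and the red row is Usp18 in both Dex groups.

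In PBS-injected mice, ZnSO4 lowered 3 of the 37 genes past both cut-offs (8.11%), against 0.954% of all genes tested. On the adjusted p alone 6 genes were lower (16.2% against 2.54%), namely Ifit1, Ifit1bl1, Isg15, Herc6, Oas1a and Rnf213. The median LFC of the 37 genes was -0.33, against -0.01 over all genes tested, and 33 of 37 had a negative LFC. In 10 of the 37 genes all 3 ZnSO4 mice lay below all 3 control mice, which was the case for 12.9% of all genes. No gene of the list rose past the cut-offs in edgeR or in DESeq2, and 1 (Ifi27) had a positive LFC with an unadjusted p under 0.05. The count depended on mouse 3 of water + PBS, since 7 genes were called lower without it, and the median LFC was -0.16 without mouse 2 of that group. Over all genes, 167 were called lower without mouse 3, against 152 with all libraries.

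In water-drinking mice, Dex lowered all 5 IFIT genes and a few others. Of the 37 genes, 7 were downregulated past both cut-offs (18.9%, against 1.64% of all genes) and 9 on the adjusted p alone (24.3% against 4.51%). These 9 were Ifit1, Ifit2, Ifit3, Ifit3b, Ifit1bl1, Ddx58, Cmpk2, Samd9l and Helz2. One of the 37, Usp18, was upregulated, against 2.79% of all genes. The median LFC was -0.19, against -0.01 over all genes, and 23 of 37 LFC values (62.2%) were negative, against 52% of all genes. The median was -0.05 without mouse 2 of water + PBS and -0.30 without mouse 3 of that group. All 3 Dex mice lay below all 3 controls for 11 genes, against 14.5% of all genes. The 7 genes became 4 without mouse 2 of water + PBS, 4 without mouse 3 of water + Dex, and 4 without both libraries highest in Alb. Over all genes the 261 called lower became 210, 193 and 206 in these refits. Ifit1 and Ifit1bl1 were the 2 genes lower on the adjusted p under ZnSO4 and under Dex, in comparisons that share the control mice.

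In Dex-injected mice, ZnSO4 lowered OAS, sensor and ISG15 genes beside Ifit1 and Ifit1bl1. Here 12 of the 37 genes were downregulated past both cut-offs (32.4%, against 1.2% of all genes) and 15 on the adjusted p alone (40.5% against 2.54%). The 6 genes that ZnSO4 lowered with PBS were all among these 15, and the others were Usp18, Oas3, Oasl1, Oasl2, Ifih1, Dhx58, Ddx60, Rsad2 and Ifi35. The median LFC was -0.56, against 0.01 over all genes, and 34 of 37 values were negative. In 25 genes all ZnSO4 + Dex mice lay below all water + Dex mice, against 13.2% of all genes. Leaving out both libraries highest in Alb (mouse 3 of water + Dex and mouse 2 of ZnSO4 + Dex) left 6 genes past the cut-offs. Over all genes the 192 called lower became 103 in that refit. Averaged over PBS and Dex, ZnSO4 lowered 8 of the 37 genes past the cut-offs (1.63% of all genes) and 18 on the adjusted p (6.52% of all genes).

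**Figure D3:**
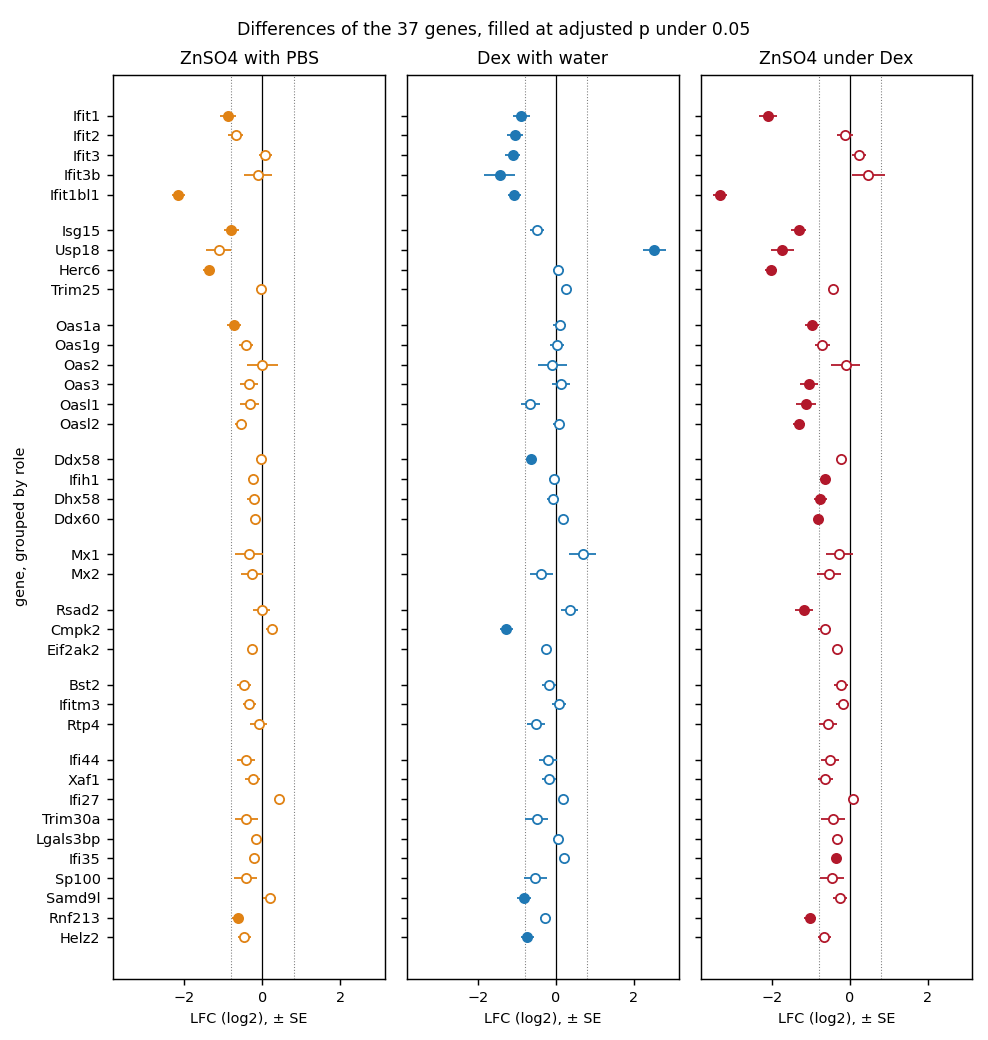
LFC (log2) ± SE of the 37 genes for ZnSO4 against water in PBS-injected mice (left), Dex against PBS in water-drinking mice (middle) and ZnSO4 against water in Dex-injected mice (right). Filled points have an adjusted p under 0.05 and dotted lines stand at 0.8 and -0.8. There are 6, 10 and 15 filled points, and Usp18 in the middle panel is the filled point on the right of 0.

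The IFIT proteins bind viral RNA with foreign 5′ ends and block its translation. Their genes lie on chromosome 19, between 34550694 (start of Ifit2) and 34650009 (end of Ifit1), within one cluster. Dex with water lowered all 5 past both cut-offs (1.64% of all genes). ZnSO4 lowered 2 of the 5 (Ifit1 and Ifit1bl1) with PBS (0.954% of all genes) and under Dex (1.2%). Ifit1bl1, an IFIT1-like gene, had the highest level of the 37 genes per kilobase of exon in control mice, 146 RPKM computed from the counts. It had 4606, 3960.2 and 2701 normalised counts in the 3 water + PBS mice, 1859.7, 1945 and 1564 in water + Dex, 948, 793 and 779.9 in ZnSO4 + PBS and 169, 178 and 190.1 in ZnSO4 + Dex. The 4 groups formed 4 steps with no overlap. ZnSO4 lowered Ifit1bl1 with an LFC of -2.16 ± 0.17 (adjusted p = 0.000119), Dex with -1.07 ± 0.17 (adjusted p = 0.00159), and the combination was 21-fold below the control (LFC -4.39 ± 0.19, adjusted p = 2.1e-07). In Dex-injected mice ZnSO4 lowered it by 3.32 ± 0.19 on the log2 scale, and its call held without any 1 library in each of these comparisons.

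Ifit1, the founding member of the family, had 801, 707 and 458 normalised counts in water + PBS and 334, 376 and 350.1 in water + Dex. The values were 454, 265 and 347 in ZnSO4 + PBS and 78.8, 91.3 and 76.9 in ZnSO4 + Dex. The groups with 1 treatment overlapped each other and lay below every control mouse, and the mice with both treatments lay below all others. The LFC was -0.88 ± 0.21 for ZnSO4 (adjusted p = 0.0375) and -0.89 ± 0.21 for Dex (adjusted p = 0.0191), and -2.10 ± 0.23 for ZnSO4 in Dex-injected mice (adjusted p = 0.000796). The first of these calls was lost without any 1 of 8 libraries (water + PBS 1 or 2, water + Dex 1, 2 or 3, ZnSO4 + PBS 2 or 3, ZnSO4 + Dex 1), with an adjusted p of up to 0.142. The Dex call was lost without water + PBS 1 or 2 or water + Dex 1 or 3 (adjusted p of up to 0.0752). Without both libraries highest in Alb the adjusted p was 0.0572 for ZnSO4 and 0.0744 for Dex, and without both B cell-rich libraries it was 0.192 for ZnSO4.

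The other 3 IFIT genes were lowered by Dex and gave no call for ZnSO4 in edgeR. Ifit2, whose product also promotes cell death, had 267, 214 and 145 normalised counts in water + PBS, 111, 106 and 82.1 in water + Dex, 124, 117 and 147 in ZnSO4 + PBS and 86.1, 95.1 and 95.0 in ZnSO4 + Dex. Dex lowered it by 1.06 ± 0.20 on the log2 scale (adjusted p = 0.00602), while the adjusted p for ZnSO4 was 0.0772 with PBS and 0.812 under Dex. With PBS it was 0.0415 in DESeq2 and 0.0172 without water + PBS 3. Ifit3, a partner that stabilises IFIT1, had 91.4, 108 and 77.9 in water + PBS and 105, 86.0 and 102 in ZnSO4 + PBS, groups that overlap. In the Dex groups Ifit3 had 47.9, 44.3 and 35.7 with water and 42.5, 58.6 and 49.1 with ZnSO4, all below every PBS mouse (Dex with water, LFC -1.12 ± 0.18, adjusted p = 0.00222). Ifit3b, its near copy, was low, with 31.1, 31.1 and 21.9 in water + PBS, 6.69, 10.8 and 13.0 in water + Dex, 17.9, 21.0 and 38.9 in ZnSO4 + PBS and 8.29, 20.2 and 13.9 in ZnSO4 + Dex. Its Dex call (LFC -1.45 ± 0.40, adjusted p = 0.0417) was lost without any 1 of 8 libraries (each of the 6 water mice, ZnSO4 + PBS 2 or ZnSO4 + Dex 3), with an adjusted p of up to 0.146, and without both libraries highest in Alb (0.0567). Without both B cell-rich libraries the adjusted p was 0.122. Ifit3 shares 61.8% of its 31-base stretches with Ifit3b, and since reads with more than 1 position were left out by the authors, the counts of both genes rest on the parts that differ.

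ISG15 is conjugated to proteins by HERC6, the main ISG15 ligase of the mouse, and is removed by USP18, which also blocks signalling at IFNAR2. Isg15 had 201, 231 and 137 normalised counts in water + PBS and 130.4, 144 and 131 in water + Dex. ZnSO4 + PBS mice had 113, 89.7 and 125 and ZnSO4 + Dex mice 52.9, 52.8 and 57.7. All ZnSO4 mice lay below all control mice, and the ZnSO4 + Dex mice lay lowest, within a narrow range. The LFC for ZnSO4 was -0.79 ± 0.18 with PBS (adjusted p = 0.0335), just short of the cut-off on size, and -1.31 ± 0.19 under Dex (adjusted p = 0.00358). With PBS the adjusted p rose above the threshold, to at most 0.114, without any 1 of 8 libraries (water + PBS 1 or 2, water + Dex 1, 2 or 3, ZnSO4 + PBS 1, 2 or 3), and was 0.0553 without both libraries highest in Alb. Without both B cell-rich libraries it was 0.203, at an LFC of -0.505.

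Herc6 separated by drinking water. It had 237, 255 and 186 normalised counts in water + PBS and 245, 235 and 223 in water + Dex, against 81.1, 89.7 and 90.8 in ZnSO4 + PBS and 60.1, 65.3 and 48.1 in ZnSO4 + Dex. Both ZnSO4 groups lay below both water groups with no overlap. ZnSO4 lowered Herc6 2.59-fold with PBS (LFC -1.37 ± 0.14, adjusted p = 0.000541) and 4.04-fold under Dex (LFC -2.01 ± 0.15, adjusted p = 5.72e-05), while the adjusted p for Dex in water-drinking mice was 0.87. In ZnSO4-drinking mice Dex lowered Herc6 as well (LFC -0.59, adjusted p = 0.0228). That call was lost without ZnSO4 + PBS 2 or 3 or ZnSO4 + Dex 1 or 3 (adjusted p of up to 0.072). It was also lost without both B cell-rich libraries (adjusted p = 0.0586). Of the exon length of Herc6, 13.7% overlaps another annotated gene (Gm45193) on the same strand.

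Usp18 was the exception to the general direction. It had 122, 158 and 69.4 normalised counts in water + PBS and 607, 664 and 730.5 in water + Dex. With ZnSO4 the counts were 48.1, 48.5 and 63.9 after PBS and 289, 134 and 178 after Dex. Dex raised Usp18 5.74-fold in water-drinking mice (LFC 2.52 ± 0.31, adjusted p = 0.000285) and 3.74-fold in ZnSO4-drinking mice (LFC 1.90 ± 0.32, adjusted p = 0.00187). ZnSO4 nevertheless lowered it in Dex-injected mice, by 1.74 ± 0.29 on the log2 scale (adjusted p = 0.00752), a call lost without both libraries highest in Alb (adjusted p = 0.0684). With PBS the adjusted p for ZnSO4 was 0.0734, and 0.00980 in DESeq2. Trim25, a ligase for ISG15 and for RIG-I, was among the most read genes of the list, with 1667 to 2696 normalised counts in the 12 mice, and gave no call in edgeR in any of the 5 pairwise comparisons, with an adjusted p of 0.0121 for ZnSO4 under Dex in DESeq2.

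**Figure D4:**
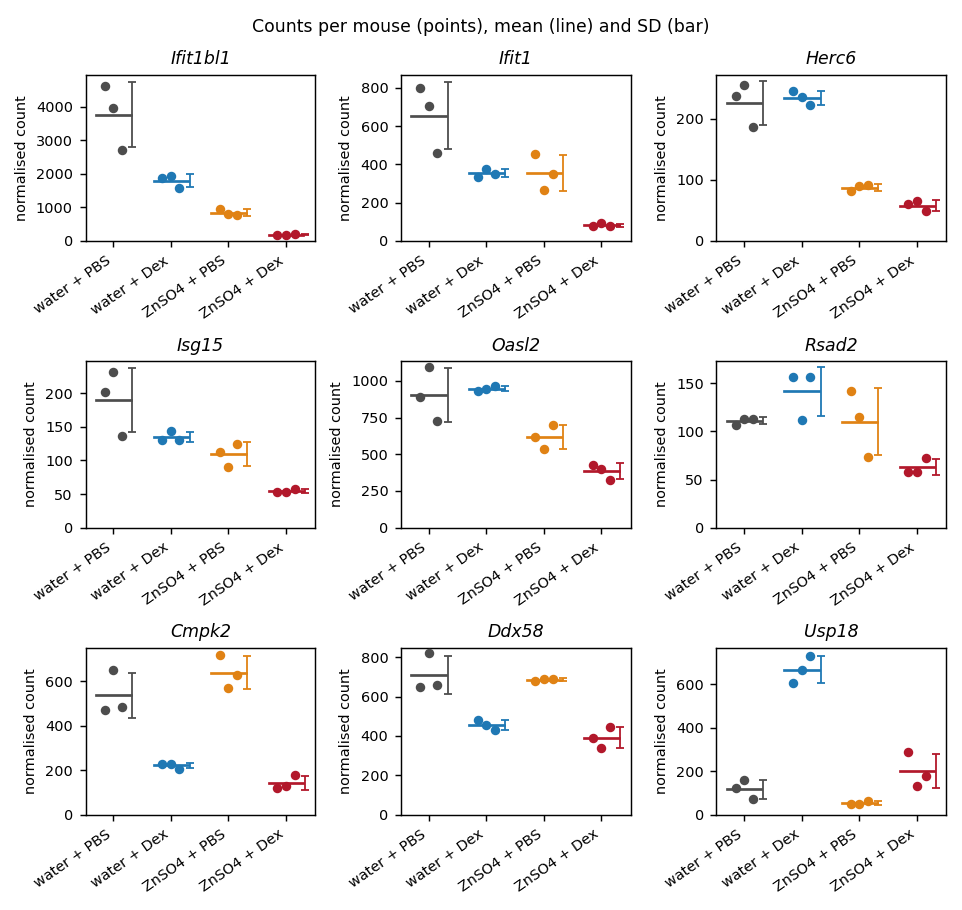
Normalised counts of 9 of the genes in each mouse (points), with the mean of the group (line) and its SD (bar, n = 3), on axes that start at 0. Ifit1bl1 falls in 4 steps from a mean of 3756 to 179, Herc6 separates by ZnSO4, Cmpk2 and Ddx58 by Dex, and Usp18 is highest in water + Dex with a mean of 667.

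OAS enzymes make 2′-5′ oligoadenylates that activate RNase L, and the OAS-like proteins are their relatives. All 6 genes described here lie on chromosome 5. Under Dex, 4 of the 6 genes were lowered by ZnSO4 past both cut-offs (Oas1a, Oas3, Oasl1 and Oasl2), against 1.2% of all genes, while Dex with water gave 0 calls in edgeR, with 1 gene (Oasl1) at an unadjusted p under 0.05. Oasl2 had 888, 1095 and 728 normalised counts in water + PBS and 933, 945 and 964 in water + Dex. With ZnSO4 it had 619, 537 and 703 after PBS and 429, 399.7 and 327 after Dex, so both ZnSO4 groups lay below both water groups. The LFC for ZnSO4 under Dex was -1.30 ± 0.15 (adjusted p = 0.00111), and the adjusted p with PBS was 0.06 in edgeR and 0.0164 in DESeq2.

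Oas1a, a 2-5A synthetase, had 390.1, 354 and 246 normalised counts in water + PBS and 308, 370.4 and 379 in water + Dex. It had 182, 184 and 231 in ZnSO4 + PBS and 199, 164 and 178 in ZnSO4 + Dex. The ZnSO4 groups lay below the water groups, and the Dex groups overlapped the PBS groups. ZnSO4 lowered Oas1a by 0.73 ± 0.17 on the log2 scale with PBS (adjusted p = 0.0339) and by 0.97 ± 0.17 under Dex (adjusted p = 0.00935). The first was lost without any 1 of 6 libraries (water + PBS 1 or 2, water + Dex 2 or 3, ZnSO4 + PBS 1 or 2), with an adjusted p of up to 0.137, and the second without both libraries highest in Alb (adjusted p = 0.102). Without both B cell-rich libraries the adjusted p with PBS was 0.18. Oas1a shares 68.7% of its 31-base stretches with Oas1g, so both counts rest on the parts that differ, and Oas1g had an adjusted p of 0.052 for ZnSO4 under Dex (0.0170 in DESeq2).

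Oas3, the largest synthetase, had 282, 499 and 281 in water + PBS, 376, 389 and 399.8 in water + Dex, 244, 243 and 343 in ZnSO4 + PBS and 202, 146 and 220.0 in ZnSO4 + Dex. Oasl1, which in mice also holds back translation of Irf7, had 412, 738 and 681 in water + PBS, 401, 388 and 373 in water + Dex, 668, 419 and 372 in ZnSO4 + PBS and 169, 144 and 219 in ZnSO4 + Dex. For both genes the ZnSO4 + Dex mice lay below all other mice, and the PBS groups overlapped. Their LFC for ZnSO4 under Dex was -1.04 ± 0.23 (adjusted p = 0.0291) and -1.13 ± 0.26 (adjusted p = 0.0301). Either call was lost without any 1 of water + Dex 1, 2 or 3 and ZnSO4 + Dex 1 or 2, with an adjusted p of up to 0.102, and without both libraries highest in Alb (0.198 and 0.184). Oas2 had 18.9 to 49.2 normalised counts in the 12 mice and no call.

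The cytosolic RNA sensors RIG-I (Ddx58), MDA5 (Ifih1) and LGP2 (Dhx58) detect viral RNA, and DDX60 is a helicase linked to RIG-I signalling. With PBS, ZnSO4 gave 0 calls among the 4 genes in edgeR, and 0 had an unadjusted p under 0.05. Ddx58 separated by Dex, with 651, 822 and 659 normalised counts in water + PBS and 681, 690.0 and 690.0 in ZnSO4 + PBS, against 483, 457 and 429 in water + Dex and 392, 337 and 443 in ZnSO4 + Dex. Every Dex mouse lay below every PBS mouse (LFC -0.64 ± 0.11 with water, adjusted p = 0.00341, and -0.81 ± 0.11 with ZnSO4, adjusted p = 0.000518). Ddx60 had 465, 542 and 429 in water + PBS and 538, 528 and 545 in water + Dex, 416, 406 and 446 in ZnSO4 + PBS and 299, 279 and 347 in ZnSO4 + Dex. It was lowest with the combination, and the adjusted p for Dex with water was 0.374. ZnSO4 under Dex lowered Ddx60 with an LFC of -0.80 ± 0.10, Ifih1 with -0.64 ± 0.12 and Dhx58 with -0.76 ± 0.17 (adjusted p = 0.00184, 0.014 and 0.0283). The call of Ifih1 was lost without any 1 of the 3 water + Dex mice (adjusted p of up to 0.0623) and that of Dhx58 without any 1 of the 6 Dex mice (up to 0.103). Without both libraries highest in Alb the adjusted p was 0.0559 for Ifih1 and 0.106 for Dhx58.

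The Mx GTPases trap viral nucleocapsids, and Mx1 is defective in most inbred laboratory strains. Mx1 had 23.3, 54.2 and 43.7 normalised counts in water + PBS, 59.1, 59.4 and 76.7 in water + Dex, 21.7, 36.6 and 37 in ZnSO4 + PBS and 68.4, 30.7 and 63.0 in ZnSO4 + Dex. At these low counts the water + Dex mice lay above the controls, the only one of the 5 pairwise comparisons without overlap (adjusted p = 0.274). The adjusted p for ZnSO4 was 0.648 with PBS and 0.718 under Dex. Mx2, which GENCODE annotates as a polymorphic pseudogene, had 10.4 to 34.1 normalised counts, and of the 5 pairwise comparisons only the combination against control gave an adjusted p under 0.05 (0.0479), a call lost in DESeq2 and without any 1 of 9 libraries, all but water + PBS 3, ZnSO4 + PBS 2 and ZnSO4 + Dex 2 (adjusted p of up to 0.160).

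Rsad2 (viperin, an enzyme that makes a chain-terminating nucleotide) and Cmpk2 (a mitochondrial nucleotide kinase) are neighbours on chromosome 12. Rsad2 had 107, 113 and 113 normalised counts in water + PBS, 156, 112 and 157 in water + Dex, 142, 115 and 73.2 in ZnSO4 + PBS and 58.1, 57.6 and 72.6 in ZnSO4 + Dex. The ZnSO4 + Dex mice lay below all others, and the other 3 groups overlapped in pairs. ZnSO4 under Dex lowered Rsad2 with an LFC of -1.17 ± 0.23 (adjusted p = 0.0137), which was lost without water + Dex 1 or 3 or ZnSO4 + Dex 1 (adjusted p of up to 0.0591), and without both libraries highest in Alb (0.129). Cmpk2 had 471, 653 and 486 in water + PBS and 718, 571 and 628 in ZnSO4 + PBS, against 229.7, 228 and 206 in water + Dex and 118, 129.7 and 176 in ZnSO4 + Dex. Dex lowered Cmpk2 2.42-fold with water (LFC -1.28 ± 0.16, adjusted p = 0.000423) and 4.52-fold with ZnSO4 (LFC -2.18 ± 0.17, adjusted p = 1.03e-05). The adjusted p for ZnSO4 was 0.413 with PBS and 0.0545 under Dex. In the last comparison all ZnSO4 mice lay below all water mice, and the adjusted p was 0.0116 in DESeq2 and 0.0203 without ZnSO4 + Dex 3. Eif2ak2, the kinase PKR that halts translation, was lower in each ZnSO4 group than in its water group without overlap. Its means were 736 ± 20.1 (SD) in water + PBS, 607 ± 55.3 in ZnSO4 + PBS, 620.3 ± 20.6 in water + Dex and 490.1 ± 50.1 in ZnSO4 + Dex. The adjusted p for ZnSO4 was 0.1 with PBS and 0.0547 under Dex (0.0358 in DESeq2). With the combination Eif2ak2 was below the control (LFC -0.59, adjusted p = 0.000679). Dex lowered it in ZnSO4-drinking mice (LFC -0.31, adjusted p = 0.0386). That call was lost without any 1 of 8 libraries (adjusted p of up to 0.150) and without both libraries highest in Alb.

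The membrane restriction factors gave no call for ZnSO4 or for Dex alone in edgeR, with 1 of the 3 lower at an unadjusted p under 0.05 in each of the first 3 comparisons. Bst2 (tetherin, which holds budding virions at the cell surface) had 288, 347 and 244 normalised counts in water + PBS, 225, 274 and 272 in water + Dex, 173, 214 and 248 in ZnSO4 + PBS and 208, 265 and 184 in ZnSO4 + Dex. Ifitm3, which blocks fusion of viral and endosomal membranes, had 762, 825 and 626 in water + PBS, 770.4, 825 and 730.5 in water + Dex, 439, 587 and 731 in ZnSO4 + PBS and 593, 802 and 657 in ZnSO4 + Dex. The groups of both genes overlapped in each of the 5 pairwise comparisons. Bst2 carries the same kind of ISRE pair in its promoter as Oas1a (sequences above), and its adjusted p for ZnSO4 was 0.17 with PBS and 0.536 under Dex. Rtp4, a chaperone of membrane receptors, was lower with the combination than in the control, with means of 89.0 ± 24.9 (SD) and 187 ± 52.9 (LFC -1.07 ± 0.23, adjusted p = 0.00704).

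Of the 10 remaining interferon-induced genes, Rnf213, a giant ubiquitin ligase, responded to ZnSO4. It had 1927, 1871 and 1346 normalised counts in water + PBS, 1375, 1688 and 1189 in water + Dex, 1064, 1063 and 1194 in ZnSO4 + PBS and 659, 714 and 724 in ZnSO4 + Dex. ZnSO4 lowered it by 0.63 ± 0.15 on the log2 scale with PBS (adjusted p = 0.0335) and by 1.02 ± 0.15 under Dex (adjusted p = 0.00342). The first was lost without any 1 of 6 libraries (water + PBS 1 or 2, water + Dex 1, ZnSO4 + PBS 1, 2 or 3), with an adjusted p of up to 0.135. It was also lost without both B cell-rich libraries. In ZnSO4-drinking mice Dex lowered Rnf213 too (LFC -0.66, adjusted p = 0.0108). Samd9l, a restriction factor that limits growth and translation, responded to Dex. It had 1139, 1459.9 and 1211 in water + PBS and 1389, 1621 and 1313 in ZnSO4 + PBS, against 931, 593 and 643 in water + Dex and 625, 499 and 702 in ZnSO4 + Dex. Its LFC for Dex was -0.81 ± 0.18 with water (adjusted p = 0.0122), lost without water + PBS 2 or water + Dex 2 or 3 (adjusted p of up to 0.0619), and -1.24 ± 0.18 with ZnSO4 (adjusted p = 0.000665). The call with water was also lost without both B cell-rich libraries. Helz2, a helicase and nuclear receptor coactivator, was lower with Dex in water-drinking mice (LFC -0.74 ± 0.17, adjusted p = 0.0151, lost without water + PBS 2 or water + Dex 3, at up to 0.0762, and without both libraries highest in Alb, at 0.0652) and lowest with the combination (545, 508 and 679, against 1469.9, 1787 and 1279 in the control). For ZnSO4 under Dex its adjusted p was 0.0549 in edgeR and 0.00672 in DESeq2.

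Ifi35, a leucine-zipper protein, was lower with ZnSO4 under Dex (LFC -0.35 ± 0.07, adjusted p = 0.0208), a small difference that was lost without water + Dex 1, 2 or 3 or ZnSO4 + Dex 1 or 2 (adjusted p of up to 0.0969) and without both libraries highest in Alb (0.104), and 16.8% of its exon length overlaps Gm11626 on the opposite strand. Ifi44, Xaf1, Trim30a, Lgals3bp and Sp100 had an adjusted p above 0.05 for ZnSO4 with PBS, Dex with water and ZnSO4 under Dex. With both treatments against the control, Xaf1 was lower (adjusted p = 0.00937), as were Sp100 (0.0334), Trim30a (0.0467) and Ifi44 (0.0486). The adjusted p of Lgals3bp was 0.0772 there. The Xaf1 call held without any 1 library, but not without both B cell-rich libraries (adjusted p = 0.0502). The other calls were lost without any 1 of 4 libraries (Sp100) or 9 libraries (Trim30a and Ifi44). Sp100, a nuclear body protein, had 391, 746 and 395 normalised counts in water + PBS and 305, 565 and 270.5 in ZnSO4 + PBS. Trim30a, a TRIM-family regulator, had 180.0, 398 and 215 and 141, 277 and 174. Both genes were highest in mouse 2 of each group, the mouse with the most B cell RNA of its group, and the part of B cells in this was not tested. Ifi27, a small mitochondrial and nuclear membrane protein, was the gene with the highest positive LFC for ZnSO4 with PBS, 403, 352 and 374 against 263, 320.1 and 258 (adjusted p = 0.057, and 0.0194 in DESeq2).

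Compared with the control, the mice that received both ZnSO4 and Dex had 22 of the 37 genes downregulated past the cut-offs, against 4.56% of all genes, and 27 on the adjusted p alone, against 11.9% of all genes. The median LFC was -0.87. No gene of the list was higher past both cut-offs in edgeR or DESeq2, while 2 had a positive LFC with an unadjusted p under 0.05. Usp18 had an adjusted p of 0.0822 in edgeR and 0.0406 in DESeq2. The 22 became 13 without mouse 2 of water + PBS, one of the B cell-rich mice, and Usp18 was called higher without that mouse, without mouse 2 of ZnSO4 + Dex or without both libraries highest in Alb. Over all genes the 727 called lower became 558 without mouse 2 of water + PBS. In ZnSO4-drinking mice Dex lowered 11 genes past the cut-offs (2.4% of all genes) and 18 on the adjusted p (7.08% of all genes), and raised Usp18 (3.41% of all genes were called higher).

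Whether ZnSO4 acted differently with and without Dex was tested as an interaction in the same model. The interaction LFC was negative for 31 of the 37 genes, with a median of -0.33 against 0.01 over all genes. No gene of the list, and none of the 15938 genes tested, had an adjusted p under 0.05 in edgeR or in DESeq2. At an unadjusted p under 0.05, 11 genes of the list had a negative interaction and 0 a positive one, while 2.38% of all genes had a negative one. The smallest adjusted p in the list was 0.952 in edgeR and 0.0509 in DESeq2, so a difference between the 2 ZnSO4 effects was not established for any single gene. The same 12 libraries give both effects, and the interaction carries the spread of all 4 groups.

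The pathway above the effector genes was read from a list of 62 further genes, of which 51 could be tested. Ligands were at or near 0. Of 10 type I and III interferon genes (Ifnb1, Ifna1, Ifna2, Ifna4, Ifna5, Ifne, Ifnk, Ifnz, Ifnl2 and Ifnl3), 7 had 0 reads in all 12 mice and the other 3 had at most 2 reads in a mouse. Ifng, the type II ligand of T and NK cells, had at most 6 reads. A count of 0 allows up to 3 reads at this depth, by counting error alone. Of the 6 receptor genes, Ifnlr1, the epithelial IFN-λ receptor, was lowered by Dex, with 268, 248 and 289.8 normalised counts in water + PBS and 137, 144 and 137 in water + Dex (LFC -0.95 ± 0.19, adjusted p = 0.00713). ZnSO4 gave no call among the 6 receptors and the 3 Janus kinases in edgeR, and none had an unadjusted p under 0.05.

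Of 8 transcription factors, ZnSO4 with PBS lowered 3 on the adjusted p (Stat2, Irf1, Irf8), Dex with water 2 (Irf1, Irf8) and ZnSO4 under Dex 3 (Stat2, Irf7, Irf1). Over all genes the shares lower on the adjusted p were 2.54%, 4.51% and 2.54%. Stat2, a subunit of the complex on the ISRE, was lowered by ZnSO4 with PBS (-0.42 ± 0.10, adjusted p = 0.0378) and under Dex (-0.65 ± 0.10, adjusted p = 0.00513). Irf9, another subunit, had 467, 601 and 467 in water + PBS, 492, 565 and 521 in water + Dex, 445, 460.3 and 474 in ZnSO4 + PBS and 481, 397 and 335 in ZnSO4 + Dex, with an adjusted p for ZnSO4 of 0.573 and 0.144.

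Irf7, the factor that amplifies type I interferon production, had 1531, 1498 and 1359.7 normalised counts in water + PBS and 1582, 1879 and 1642 in water + Dex, with 1179, 1084 and 1198 in ZnSO4 + PBS and 806, 580.3 and 927 in ZnSO4 + Dex. Like Oas3, Oasl1 and Oasl2 it was lowest with the combination and was lowered by ZnSO4 under Dex (LFC -1.14 ± 0.14, adjusted p = 0.00153). Irf1 and Irf8 were lowered by either treatment. For Irf1 the LFC was -0.80 ± 0.10 for ZnSO4 (adjusted p = 0.00148) and -1.18 ± 0.10 for Dex (adjusted p = 2.24e-05). For Irf8, a factor of myeloid and B cells that is also induced by IFN-γ, it was -0.74 ± 0.14 (adjusted p = 0.0138) and -1.34 ± 0.14 (adjusted p = 0.000102).

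Among 12 genes of sensing adaptors and kinases, Zbp1, a sensor of Z-form nucleic acids that can start necroptosis, fell with ZnSO4. It had 979, 982 and 591 in water + PBS and 790.5, 947 and 805 in water + Dex, against 146, 167 and 195 in ZnSO4 + PBS and 132, 191 and 122 in ZnSO4 + Dex. Its LFC was -2.33 ± 0.22 with PBS (adjusted p = 0.000262) and -2.51 ± 0.22 under Dex (adjusted p = 0.000155), while the adjusted p for Dex with water was 0.993. Tbk1, the kinase that activates IRF3, was lowered by ZnSO4 (-0.39 ± 0.10, adjusted p = 0.0468, and -0.50 ± 0.10 under Dex, adjusted p = 0.0164). Dex lowered Mavs, the adaptor of RIG-I and MDA5 (LFC -0.60 ± 0.09, adjusted p = 0.00107), and Tlr3, the endosomal sensor of double-stranded RNA (LFC -0.59 ± 0.09, adjusted p = 0.000999), and raised Tlr7, a sensor of single-stranded RNA (LFC 1.33 ± 0.38, adjusted p = 0.0477).

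Of the 5 feedback genes, Socs1 and Socs3, inhibitors of Janus kinase signalling, were lowered by ZnSO4 and by Dex. Socs1 had 136, 138 and 90.3 normalised counts in water + PBS, 23.4, 21.6 and 28.1 in water + Dex, 39.6, 48.5 and 49.1 in ZnSO4 + PBS and 12.4, 7.69 and 28.8 in ZnSO4 + Dex (LFC -1.41 ± 0.32, adjusted p = 0.0316 for ZnSO4, and -2.31 ± 0.34, adjusted p = 0.00121 for Dex). Socs3 had an LFC of -1.56 ± 0.38 (adjusted p = 0.0402) and -2.06 ± 0.39 (adjusted p = 0.00534). Nlrc5, the transactivator of MHC class I genes, was lowered by ZnSO4 (-1.42 ± 0.24, adjusted p = 0.00865) and Ptpn2, a phosphatase of Janus kinases, was raised by Dex (0.35 ± 0.08, adjusted p = 0.014).

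Genes that respond strongly to IFN-γ, the type II interferon, were lower with ZnSO4. Of 17 such genes, ZnSO4 with PBS lowered 12 past the cut-offs (0.954% of all genes) and 13 on the adjusted p (2.54%), with a median LFC of -1.24. ZnSO4 under Dex lowered 7 (1.2% of all genes) and 8 (2.54%), with a median of -1.04. Dex with water lowered 2 past the cut-offs, Cxcl10 and Iigp1 (1.64% of all genes). Ubd, a ubiquitin-like modifier, had 699, 784 and 315 normalised counts in water + PBS, 397, 942 and 565 in water + Dex, 39.6, 119 and 36.1 in ZnSO4 + PBS and 33.2, 16.3 and 36.3 in ZnSO4 + Dex (LFC for ZnSO4 -3.20 ± 0.52, adjusted p = 0.00624, and -4.48 ± 0.57 under Dex, adjusted p = 0.00177). Psmb8, an immunoproteasome subunit, had an LFC of -1.18 ± 0.15 (adjusted p = 0.00171) and -1.18 ± 0.15 under Dex (adjusted p = 0.00184). Cxcl10, a T cell chemokine, was lowered by ZnSO4 (-1.75 ± 0.30, adjusted p = 0.00865) and by Dex (-3.47 ± 0.35, adjusted p = 6.97e-05). The others that passed the adjusted p for ZnSO4 with PBS were Cxcl9, Iigp1, Gbp6, Gbp7, Irgm1, Irgm2, Igtp, Tgtp1, Ido1 and Psmb9. The difference between this list and the effector genes was not tested.

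Markers of T cells and intraepithelial lymphocytes moved with ZnSO4 as well. All 6 (Cd3e, Cd3g, Cd8a, Gzma, Gzmb, Itgae) had a negative LFC in both ZnSO4 comparisons, with a median of -1.0 with PBS and -1.31 under Dex, and their summed counts were 2123 to 3189 in water + PBS, 2619 to 4481 in water + Dex, 861 to 999 in ZnSO4 + PBS and 992 to 1313 in ZnSO4 + Dex. None of the 6 was at 0 in any mouse. Dex with water gave 0 calls among them in edgeR, with 1 lower and 1 higher at an unadjusted p under 0.05. With the median log2 level of these markers as a covariate, chosen after they were seen to differ, 0 effector genes passed in either ZnSO4 comparison, but that fit left only 5 genes of the 15938 called lower by ZnSO4 with PBS and 2 under Dex, against 152 and 192 without it. The marker sums of the ZnSO4 and water groups do not overlap, so T cell RNA and ZnSO4 cannot be told apart here.

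B cell markers (Ms4a1, Cd79a, Cd79b, Cr2, Fcer2a) gave no call for ZnSO4 with PBS, Dex with water or ZnSO4 under Dex in edgeR, and none had an unadjusted p under 0.05. Their median log2 difference from the control mean ran from -3.12 to 2.53 within water + PBS alone and from -4.16 to 2.14 within ZnSO4 + PBS. With a B cell covariate the effector genes called lower were 4 for ZnSO4 with PBS and 11 for ZnSO4 under Dex, and 170 and 202 over all genes. Of 4 markers of plasmacytoid dendritic cells, a source of type I interferon, Siglech had 5.72 to 34.6 normalised counts, Ccr9 was lower with ZnSO4 (LFC -0.95 ± 0.22, adjusted p = 0.0361), Klk1 higher (LFC 0.76 ± 0.16, adjusted p = 0.0203) and Runx2 without a call. Enterocyte markers (Alpi, Vil1, Apoa1, Apoa4, Fabp2) were abundant in every mouse, from 62185 to 157630 summed counts, with 0 of 5 called by ZnSO4 with PBS or under Dex in edgeR. At an unadjusted p under 0.05, 2 were higher with PBS and 2 lower under Dex. The lowest sum was that of ZnSO4 + Dex 2, a library highest in Alb. The 4 smooth muscle markers (Acta2, Myh11, Des, Cnn1) were all higher in ZnSO4 + Dex than in water + Dex without overlap, with a median LFC of 0.38, 0 calls in edgeR and 0 at an unadjusted p under 0.05. Muc2, 1 of 4 goblet cell markers, was raised by ZnSO4 with PBS (LFC 0.88 ± 0.20, adjusted p = 0.0329) and under Dex (LFC 0.83 ± 0.20, adjusted p = 0.0417). Mzb1, 1 of 3 plasma cell markers, was lowered by ZnSO4 under Dex (LFC -1.15 ± 0.27, adjusted p = 0.0373). The part of these cells in the results was not tested.

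**Figure D5:**
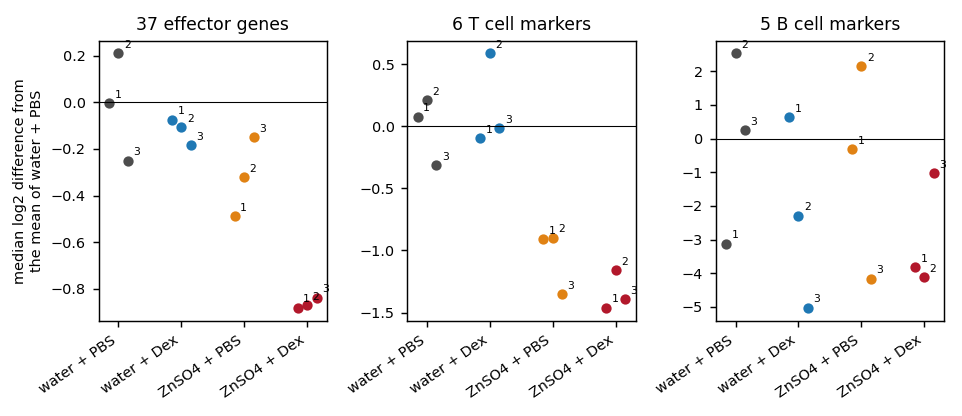
Median log2 difference from the mean of water + PBS over the 37 effector genes (left), 6 T cell markers (middle) and 5 B cell markers (right) in each mouse, with the number of the mouse beside its point. The effector genes are lowest in ZnSO4 + Dex (-0.88 to -0.84), the T cell markers are low in both ZnSO4 groups, and the B cell markers spread within each group.

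The ISRE letters were present in promoters of genes that responded and of genes that gave no call. Of the 15 genes lowered on the adjusted p by ZnSO4 under Dex, 13 had a promoter window and 8 of these held the letters. Among the other 22 genes, 17 had a window and 8 held them. For Dex with water the numbers were 5 of 9 windows among the lowered genes and 11 of 21 among the others.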

How the data were processed

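Ileum RNA of 12 mice (4 groups of 3) was sequenced as stranded single-end libraries. The authors deposited raw counts of reads per Ensembl gene, made with HISAT2 2.0.4 on mm10 and featureCounts, per the labels and methods, with multimapping reads excluded. The counting's strand setting and annotation release are not given in the sources used here. Groups were taken from the sample titles and all libraries were used, with 10760132 to 11827487 counts each.

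From these counts, edgeR 4.0.16 in R 4.3.3 (TMM, filterByExpr with a minimum count of 10) fitted 4 group means, with quasi-likelihood tests and Benjamini-Hochberg adjustment over 15938 genes. The analysis was also run on simulated counts. There, genes were changed in a single group by more than many of the differences given here, so that run does not cover smaller differences. DESeq2 1.42.0, other scaling, filters and cut-offs, marker covariates and left-out libraries were alternatives. Comparisons share groups, the control above all. Per-mouse values are given for genes past the cut-offs in the first 3 comparisons and for a set of landmark genes, and other genes by count or for a result they carry. Symbols were matched by Ensembl identifier. Promoter windows came from RefSeq (GRCm38.p6). The genes and lists were chosen with earlier results of these data known.

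With 3 mice against 3, an exact permutation test cannot go below p = 0.1, so single-gene p-values come from the fit across all genes. Counting error and floors cover sampling of reads only. Replicate libraries differed by more than sampling noise, so none was counted as a duplicate. Replicate numbers did not pair the mice: deviations of same-numbered mice had a median correlation of -0.051 over 18 pairs. Some listed genes are not reported here and were left out of the lists.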

Additional observations from a re-analysis of the deposited data

How the results depend on the processing

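Of the counts of called genes and median LFC values of the 37 genes under each alternative, 480 kept their size and 33 moved. Counts that stayed at 0 are among those kept. A reversed sign was not a class for these values. Requiring an LFC significantly beyond 0.8 (glmTreat) left 1 gene lower for ZnSO4 with PBS, 0 for Dex with water, 3 for ZnSO4 under Dex, 3 for Dex under ZnSO4, 8 for both treatments and 3 for ZnSO4 averaged. An LFC cut-off of 1 gave 6 for Dex under ZnSO4, 12 for both and 5 averaged. No LFC cut-off gave 6 for ZnSO4 with PBS, 18 for Dex under ZnSO4 and 18 averaged. With the T cell covariate, added after seeing the data, the counts were 0 for ZnSO4 with PBS, 0 for ZnSO4 under Dex, 9 for both and 0 averaged, and the median LFC was -0.70 for both and -0.29 averaged. Over all genes these counts were 5, 2, 304 and 5. Without both B cell-rich libraries, also added later, 13 genes were lower for both and 5 averaged, with a median LFC of -0.68 for both and -0.49 for the interaction. Over all genes 579 and 253 were lower. Without both libraries highest in Alb, likewise added later, 4 were lower for Dex with water, 6 for ZnSO4 under Dex and 1 was higher for both. Over all genes these counts were 206, 103 and 771. Leaving out 1 library at a time gave 2 to 7 genes lower for ZnSO4 with PBS (median LFC -0.37 to -0.16), 4 to 7 for Dex with water and, for both treatments, 13 to 22 lower and 0 to 1 higher (median LFC -0.99 to -0.68). The libraries concerned were water + PBS 3 (7 genes), water + PBS 2 and water + Dex 3 (4 genes for Dex with water), and water + PBS 2 (13 genes for both). Over all genes the calls lower in these refits were 167, 210, 193 and 558, in that order. The causes were not tested.

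A replicate block gave 3 genes lower for ZnSO4 with PBS, 7 for Dex with water, 10 for ZnSO4 under Dex, 10 for Dex under ZnSO4, 21 for both and 8 averaged. Over all genes the block gave 142, 255, 189, 368, 714 and 263, against 152, 261, 192, 383, 727 and 259 without it. The replicate numbers do not pair the mice. Over the 37 genes and 5 pairwise comparisons, 77 differences with an adjusted p under 0.05 kept it in 1527 of the refits and lost it in 320, with 0 reversed. Of 108 differences above it, 18 fell below it under some alternative and 42 changed sign under some alternative. The longer ISRE letters were found in 10 genes, and the shorter letters in 12 when only the 250 bases before the start were read. Low counts limit Ifit3b, Mx1, Mx2 and Oas2.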
